A study of Mus musculus with 6 samples.

Results

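The genes described here are named for proteins of the mitochondrial ribosome. They are all protein-coding rows of the count table whose GRCm38 symbol is Mrpl or Mrps followed by a number and at most one letter. The rule found 78 genes among 54385 rows, 49 of them named for the large subunit (Mrpl) and 29 for the small subunit (Mrps). Among them Mrps36 encodes no ribosomal protein, and ribosomal proteins with other names, such as Dap3, fall outside the rule. They lie on 17 chromosomes, with 11 genes on chromosome 11. All 78 passed the low-count filter. This ribosome makes the few membrane proteins of the respiratory chain that mitochondrial DNA encodes, using ribosomal RNAs of mitochondrial origin and protein subunits that are encoded in the nucleus and imported. Its small subunit reads the messenger RNA and its large subunit joins the amino acids. Brown fat is dense in mitochondria and raises heat output in the cold by letting protons flow back through uncoupling protein 1, which draws on a working respiratory chain.

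RNA was sequenced from interscapular brown fat of C57BL/6N mice aged 20 weeks, as 3 libraries of ADCY3∆AT mice and 3 libraries of wild-type (WT) mice. ADCY3∆AT mice lack Adcy3-AT, a truncated adenylyl cyclase 3; the labels do not tell how the allele was made. Mice of both genotypes ate chow until week 8 and a high-fat diet for the next 12 weeks, and both were held at 4 °C for 24 h, so no library is from a warm or chow-fed animal. The sample labels call the depot interscapular and the series text calls it inguinal. The sample labels were followed, and which of them is right was not tested. Ucp1, the gene of the uncoupling protein, averaged 10092 ± 138 CPM in ADCY3∆AT libraries and 10486 ± 160 CPM in WT libraries (SD, n = 3 each). No library of another depot was at hand, so these levels cannot tell the depots apart. The labels do not say whether each library came from a separate animal, so p-values measure the spread between these libraries, which may be partly technical.

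Levels are given as CPM, counts scaled to a common library size. Library totals were 45676498 to 48502809 estimated counts in ADCY3∆AT and 44826777 to 54933588 in WT. Each of the 78 genes had between 127 and 6154 counts in every library. Adcy3 had 348.5, 341.9 and 505.6 CPM in ADCY3∆AT libraries, against 676.9, 727.8 and 651.9 CPM in WT libraries, with no overlap, a log2 fold change of -0.78 and an edgeR adjusted p of 0.158. It passed the threshold in DESeq2 (adjusted p = 4.262e-07), in edgeR with no low-count filter (adjusted p = 0.003214) and in edgeR without ADCY3∆AT library 3 (adjusted p = 0.003381, log2 fold change -0.99). Of 25 skeletal muscle marker genes, 25 had a negative fold change. An unadjusted edgeR p under 0.05 was reached by 24 of them (96%), against 11% of all genes. At an adjusted p under 0.05, edgeR called 0 of the 25 and DESeq2 called 6. The summed level of the 25 was 260 to 959 CPM in ADCY3∆AT libraries and 1832 to 4774 CPM in WT libraries. Ckm, Ckmt2, Myh7, Pvalb and Ryr1 were listed at 0 in ADCY3∆AT library 1. Most of the 260 CPM in that library were of Mb (223 CPM) and Myl1 (23.4 CPM). Mb had 354 to 423 CPM in WT libraries. Ttn had 1.84 CPM in ADCY3∆AT library 1 and 808 to 2481 CPM in WT libraries. In bulk tissue, fewer muscle fibres and less RNA per fibre cannot be told apart. Muscle also expresses mitochondrial ribosomal proteins, and the part of this shift in the values below was not tested. The 9 brown adipocyte markers summed to 17427 to 18210 CPM in ADCY3∆AT libraries and 18188 to 18474 CPM in WT libraries, with Ucp1 the largest part. Of the 9, 4 had a positive and 5 a negative fold change. Ucp1 and Elovl3 (22.2% of the 9, against 16.5% of all genes) did not overlap between genotypes and were lower in ADCY3∆AT. DESeq2 called Elovl3 (adjusted p = 0.033, edgeR log2 fold change -0.38), and edgeR called 0 of the 9. Of 6 endothelial markers 4 had a positive and 2 a negative fold change, and 3 (50%), all positive, had an unadjusted edgeR p under 0.05, against 11% of all genes. None was called in edgeR, and Cdh5 was called in DESeq2 (adjusted p = 0.020). The sums of the 6 were 932 to 993 CPM in ADCY3∆AT libraries and 860 to 929 CPM in WT libraries.

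The promoters of 3 of these genes are shown because they hold, in the last 100 bases before the RefSeq start site, motifs that were more common among the promoters of mitochondrial ribosomal proteins than among promoters at large. The capitals mark the ETS motif CCGGAAGT, read by factors such as GABPA (NRF-2), in Mrpl51 and, on the opposite strand, in Mrps27. In Mrpl9 they mark a palindrome that holds GCGCATGCG, the core motif of NRF1 (a classic regulator of nuclear genes for mitochondria), on both strands. Each sequence is from RefSeq on GRCm38.p6 and runs 5′ to 3′ along the plus strand: Mrpl51 at chr6:125192100-125192199, Mrpl9 at chr3:94443236-94443335 and Mrps27 at chr13:99344686-99344785. These examples were picked after the motif hits were seen.
Mrpl51: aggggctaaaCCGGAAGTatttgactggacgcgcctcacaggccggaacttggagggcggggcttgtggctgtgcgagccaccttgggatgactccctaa
Mrpl9: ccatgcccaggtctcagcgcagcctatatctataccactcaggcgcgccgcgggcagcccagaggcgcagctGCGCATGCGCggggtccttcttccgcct
Mrps27: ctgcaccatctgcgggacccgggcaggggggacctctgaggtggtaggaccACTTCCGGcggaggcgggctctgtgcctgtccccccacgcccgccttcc

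Promoter windows of 250 bases before to 50 bases after the start were searched on both strands for exact letters, and 69 of the 78 genes matched the RefSeq table, with 75 promoters. CCGGAAGT was in 16% of these promoters, against 5.15% of 21263 promoters of coding genes and 3.89% of all 32851 promoters. AAGATGGCG, a motif of YY1, was in 10.7%, against 1.83% of coding and 1.4% of all promoters. GCGCATGCG was in 9.33% of them, which is 7 promoters, against 2.35% of coding and 1.75% of all promoters. Motifs of more general use differed less: GGGCGG, the GC box, was in 52% against 46.2% of coding promoters, and CCAAT was in 40% against 38.2%. CACGTG, the E box, was in 9.33% against 7.84%, and TATAAA was in 6.67% against 12.6% of coding promoters. Counted by gene, CACGTG was in 5 of 69 (7.2%), since overlapping promoters of Mrpl2 hold the same match. None of these motifs contains another, and a match says only that the letters are there; binding was not measured. A coding gene running the other way started within 1000 bases upstream of 18 of the 78 genes (23.1%), against 1486 coding genes in all (6.81%). Among these neighbours are Sars2, a mitochondrial seryl-tRNA synthetase, whose start lies 172 bases from that of Mrps12, and Ptcd2, a mitochondrial RNA-processing protein, 81 bases from Mrps27. The 18 genes with such a neighbour had log2 fold changes with a median of 0.01, and 0 of them had an unadjusted edgeR p under 0.05, against 11% of all genes tested.

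The summed transcripts of the 78 genes were nearly the same in every library. They came to 3484, 3424 and 3417 CPM in ADCY3∆AT libraries, against 3466, 3514 and 3484 CPM in WT libraries. The groups overlap, and the mean was 3442 ± 36.8 CPM in ADCY3∆AT and 3488 ± 24.1 CPM in WT (SD, n = 3 each), a difference of -1.33%. The coefficient of variation of the sum over all 6 libraries was 1.09%. By contrast the sum of the muscle markers, with Mb as most of its lowest value, spread 18.4-fold between the lowest and the highest library. The sum of the 78 genes spread 1.03-fold.

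The balance of large to small subunit transcripts was also close in all libraries. The 49 Mrpl genes summed to 2213, 2190 and 2182 CPM in ADCY3∆AT libraries, against 2213, 2241 and 2225 CPM in WT libraries. The 29 Mrps genes summed to 1271, 1234 and 1235 CPM in ADCY3∆AT libraries, against 1254, 1273 and 1259 CPM in WT libraries. Both sums overlap between the genotypes. The ratio of large to small was 1.741, 1.775 and 1.766 in ADCY3∆AT libraries, against 1.765, 1.760 and 1.768 in WT libraries. The ADCY3∆AT ratios lie on both sides of the WT ones, and the log2 difference, ADCY3∆AT minus WT, was -0.0031 with group SDs of 0.014 in ADCY3∆AT and 0.0032 in WT (n = 3 each). Names do not always match places: the products of Mrps30 and Mrps18a sit in the large subunit in known mammalian structures, and Mrps36 encodes a subunit of the 2-oxoglutarate dehydrogenase complex. With these 3 genes placed accordingly, the ratio was 2.127, 2.171 and 2.154 in ADCY3∆AT libraries, against 2.143, 2.127 and 2.134 in WT libraries, and the log2 difference was 0.011, of opposite sign and still within the overlap of the groups.

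**Figure D1:**
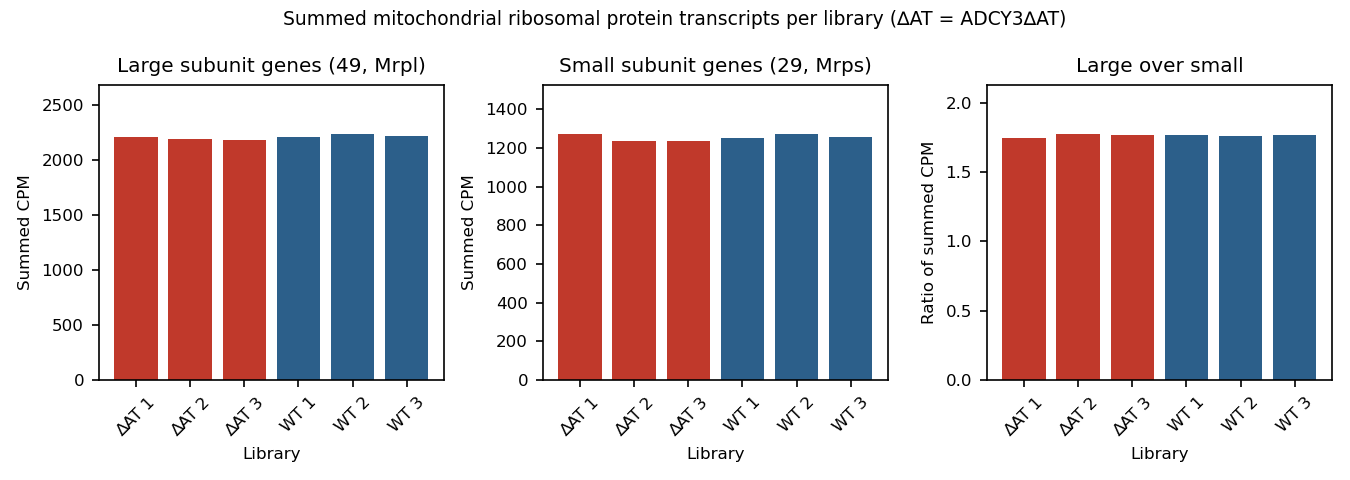
Summed CPM of the 49 large subunit and 29 small subunit genes and the ratio of the sums, in each library (bars from 0, ADCY3∆AT left of WT, no error bars since each bar is 1 library). Large sums lie between 2182 and 2241 CPM, small sums between 1234 and 1273 CPM, and ratios between 1.741 and 1.775.

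Single genes also varied little. A gene's deviation is its log2 CPM in a library minus its mean over all 6 libraries, and 411 of 468 deviations (87.8%) were within 0.1. For 42 genes every library was within 0.1 and for 74 genes every library was within 0.2. The median deviation over the 78 genes was 0.02, -0.01 and -0.03 in ADCY3∆AT libraries 1 to 3, and -0.002, 0.01 and 0.003 in WT libraries 1 to 3. ADCY3∆AT library 1 was close to WT library 2, and ADCY3∆AT libraries 2 and 3 were below all WT libraries. The highest value of a gene was in ADCY3∆AT libraries 1 to 3 for 20, 8 and 8 genes and in WT libraries 1 to 3 for 9, 17 and 16 genes. The lowest was in ADCY3∆AT libraries for 9, 22 and 21 genes and in WT libraries for 10, 4 and 12 genes. In the large subunit Mrpl37, a mitochondria-specific protein, had the lowest coefficient of variation of the 78, 1.26%, with 52.8, 53.1 and 52.1 CPM in ADCY3∆AT libraries and 52.9, 53.8 and 54.0 CPM in WT libraries. The median coefficient of variation was 4.40% over the 78 genes and 11.7% over all 18114 tested genes. The 78 genes are also more abundant, with a median of 42.4 CPM against 7.15 CPM, and the variation that counting alone would give has a median of 2.22% against 5.41%, and whether their spread differs from that of other genes of their level was not tested.

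**Figure D2:**
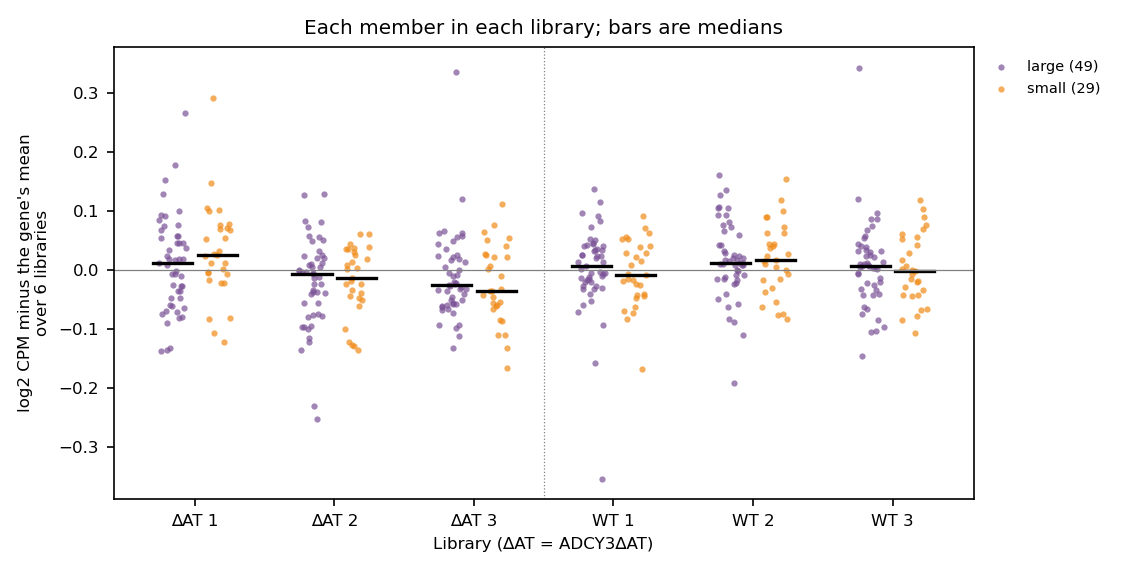
Deviation of each gene's log2 CPM from its mean over 6 libraries, by library, for 49 large and 29 small subunit genes (points; bars are medians; ADCY3∆AT left of WT). Of 468 points 411 lie within 0.1 of 0, and the farthest, at 0.353 from 0, belongs to Mrpl12.

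No mitochondrial ribosomal protein gene was called different between genotypes. At an adjusted p under 0.05, 0 of 78 passed in edgeR, where 1 of all 18114 tested rows did (0.00552%); 0 passed in DESeq2, where 1.15% of rows did, and 0 in limma voom, where 0.011% did. An unadjusted edgeR p under 0.05 was reached by 3 of the 78 (3.85%), against 11% of all genes. Of these 1 was higher in ADCY3∆AT, as were 5.23% of all genes, and 2 were lower, as were 5.78%. Leaving out ADCY3∆AT library 3, which has the highest Adcy3 level of its group, made that 9 of 78 (11.5%), against 14% of all genes in that fit, with 0 of the 78 called. Leaving out WT library 2 made it 1 of 78 (1.28%), against 7.2% of all genes, and DESeq2 also gave 1, against 5.63% of rows. The number of all rows called was 66 without ADCY3∆AT library 3. The 6 values of a gene did not overlap between genotypes for 13 of the 78 (16.7%), against 16.5% of all genes, which is no excess for both directions together. By direction, 2 of the 78 were higher in ADCY3∆AT, against 7.68% of all genes, and 11 of the 78 were lower, against 8.83%. The share is smaller than that of all genes on the higher side and larger on the lower side. Whether the directions differ from those of other genes was not tested.

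Fold changes, given as log2 of ADCY3∆AT over WT with the standard error of the edgeR fit, ran from -0.16 to 0.25. Their median was -0.01 over the 78 genes, -0.01 over the Mrpl genes, 0.003 over the Mrps genes and 0.004 over all genes tested. There were 36 positive and 42 negative values, and 62 were within 0.1 of 0. The 95% interval lay within 0.3 of 0 for 75 of the 78 genes and within 0.5 for 77, so for 77 a change past 0.5 on the log2 scale falls outside the interval of the fit. By structural class the medians were -0.01 for 30 large subunit proteins with a bacterial counterpart, -0.002 for 21 large subunit proteins specific to mitochondria, 0.01 for 16 small subunit proteins with a bacterial counterpart and -0.03 for 10 small subunit proteins specific to mitochondria.

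**Figure D3:**
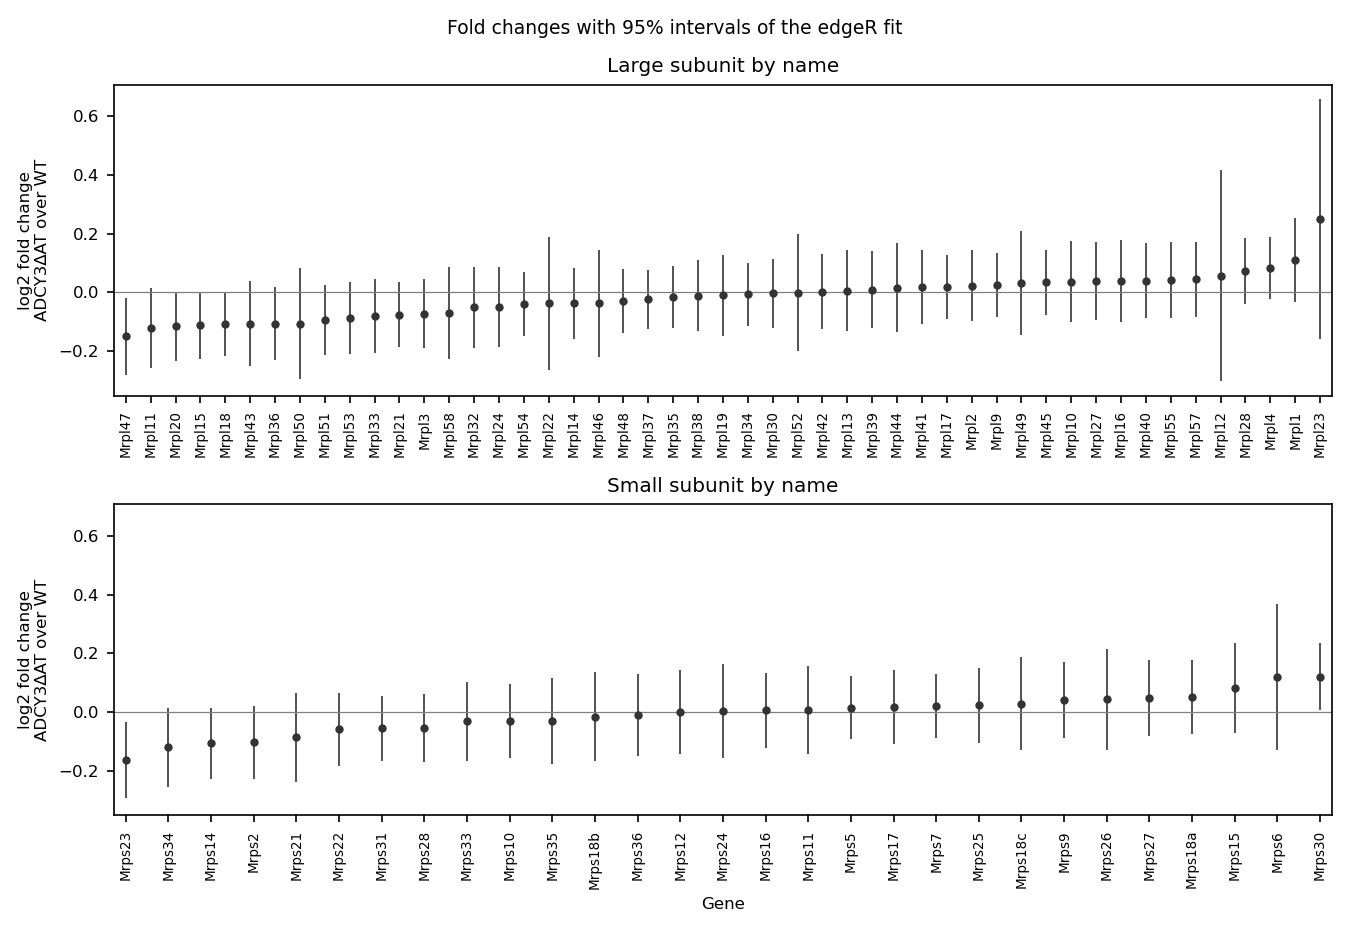
Log2 fold change, ADCY3∆AT over WT, of each of the 78 genes with the 95% interval of the edgeR fit (points and lines), ordered by size within the large and the small subunit by name. The points run from -0.16 (Mrps23) to 0.25 (Mrpl23), and the widest interval, that of Mrpl23, runs from -0.16 to 0.66.

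Among genes lower in ADCY3∆AT libraries, the lowest p belonged to Mrps23 (chr11:88204388-88211507, plus strand, GRCm38), a small subunit protein that bacteria lack. It had 73.3, 72.9 and 80.1 CPM in ADCY3∆AT libraries, against 82.0, 84.9 and 86.6 CPM in WT libraries. All ADCY3∆AT values were below all WT values, and the log2 fold change was -0.16 ± 0.06 (SE; edgeR adjusted p = 0.354, DESeq2 adjusted p = 0.429). Next was Mrpl47 (chr3:32725397-32737605, minus strand), the counterpart of bacterial L29 near the exit of the peptide tunnel. It had 41.6, 40.0 and 43.8 CPM in ADCY3∆AT libraries, against 46.6, 48.3 and 44.4 CPM in WT libraries, again without overlap, and the fold change was -0.15 ± 0.06 (edgeR adjusted p = 0.389). Exons of Mrpl47 share 10.2% of their bases with Actl6a and 13.9% with Ndufb5, and the labels do not say whether strand was kept, so reads in shared bases cannot be told apart.

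The other genes of low p on this side differed by still less. They were Mrpl15, Mrpl18, Mrpl20 and Mrpl11, counterparts of the bacterial large subunit proteins of the same numbers, Mrps14, the counterpart of bacterial S14, and Mrps34, a mitochondria-specific protein needed for a stable small subunit. Their fold changes ran from -0.12 to -0.11, with edgeR adjusted p from 0.461 to 0.511. Mrpl20, for example, had 67.9, 72.5 and 74.1 CPM in ADCY3∆AT libraries and 77.1, 77.5 and 78.0 CPM in WT libraries. Mrpl18 had 44.1, 44.1 and 46.1 CPM in ADCY3∆AT libraries and 47.3, 49.2 and 48.4 CPM in WT libraries. Neither gene's groups overlap, and in both the gap between the groups is smaller than the range among ADCY3∆AT libraries. Exons of Mrpl18 share 10.1% of their bases with Tcp1, which had a fold change of -0.12 ± 0.05 (edgeR adjusted p = 0.469). Those of Mrps34 share 63.4% with Mapk8ip3 (-0.04 ± 0.05) and 37.0% with Nme3 (0.40 ± 0.13). Whether reads of one gene were counted for the other was not tested.

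Among genes higher in ADCY3∆AT libraries, Mrps30 (chr13:118378381-118387252, minus strand), whose product lies in the large subunit despite its name, had the lowest p. It had 47.3, 45.1 and 48.7 CPM in ADCY3∆AT libraries, against 42.6, 43.2 and 44.0 CPM in WT libraries, without overlap, and the fold change was 0.12 ± 0.05 (edgeR adjusted p = 0.431). Mrpl4, the counterpart of bacterial L4 in the wall of the peptide tunnel, had 83.7, 83.6 and 81.2 CPM in ADCY3∆AT libraries and 77.2, 79.2 and 78.2 CPM in WT libraries, with a fold change of 0.08 ± 0.05 (edgeR adjusted p = 0.561). The groups do not overlap for either gene. Mrpl1, the L1 protein of the large subunit's side stalk, Mrpl28, Mrps15, Mrps6 and Mrps18a had fold changes of 0.05 to 0.12 and edgeR adjusted p from 0.57 to 0.778. The Mrps18 family has 3 genes that descend from bacterial S18 and whose products take different places in the ribosome. Despite this descent, the structural classes count Mrps18a and Mrps18b as specific to mitochondria and Mrps18c as having a bacterial counterpart. Mrps18a averaged 50.6 ± 0.19 CPM in ADCY3∆AT and 48.9 ± 2.9 CPM in WT, Mrps18b 48.2 ± 2.9 CPM in ADCY3∆AT and 48.7 ± 3.0 CPM in WT, and Mrps18c 15.8 ± 0.66 CPM in ADCY3∆AT and 15.5 ± 0.82 CPM in WT (SD, n = 3 each). None of the 3 differed by more than the spread of its libraries.

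A few genes varied more between libraries than the rest, with overlapping groups. Mrpl12 (chr11:120484613-120489065, plus strand) encodes the stalk protein that recruits translation factors and is also reported to bind the mitochondrial RNA polymerase. It had 68.7, 60.6 and 58.6 CPM in ADCY3∆AT libraries, against 47.6, 56.3 and 77.0 CPM in WT libraries, a coefficient of variation of 16.6% where counting alone would give 1.85%. The WT libraries hold both the lowest and the highest value, and the fold change of 0.06 ± 0.16 turned negative when ADCY3∆AT library 1 (-0.016) or WT library 1 (-0.088) was left out. No exon of Mrpl12 overlaps another gene.

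Mrps6, the counterpart of bacterial S6, had 21.1, 17.7 and 15.3 CPM in ADCY3∆AT libraries and 17.0, 16.4 and 16.4 CPM in WT libraries. Its high library is ADCY3∆AT library 1, and the fold change was -0.0083 without it, against 0.12 with it. Exons of Mrps6 share 10.4% of their bases with Slc5a3, the myo-inositol transporter, which lies at the same locus. Slc5a3 had 131, 105 and 77.6 CPM in ADCY3∆AT libraries and 88.6, 96.8 and 94.8 CPM in WT libraries. Both rows were highest in ADCY3∆AT library 1 and lowest in ADCY3∆AT library 3; whether reads of one were counted for the other was not tested. Mrpl50, a mitochondria-specific large subunit protein, had 31.2, 32.7 and 31.7 CPM in ADCY3∆AT libraries and 36.3, 36.9 and 29.9 CPM in WT libraries, so WT library 3 alone lies below the ADCY3∆AT values. Its coefficient of variation was 8.60%, next to 8.34% for Mrpl22, and its fold change of -0.11 ± 0.08 was -0.20 without WT library 3 (edgeR adjusted p = 0.403) and -0.053 without WT library 2.

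Mrpl23 (chr7:142532686-142540747, plus strand) had the largest fold change, the widest interval and the lowest level of the 78 genes. It had 3.96, 2.76 and 4.15 CPM in ADCY3∆AT libraries, against 2.95, 2.88 and 3.30 CPM in WT libraries, a fold change of 0.25 ± 0.18 (edgeR adjusted p = 0.652). The groups overlap. A processed pseudogene, Mrpl23-ps1 (chr2:74591330-74591909, minus strand, 580 bases), has its own row and held most of the counts: 20.3, 21.8 and 20.1 CPM in ADCY3∆AT libraries, against 21.1, 21.6 and 21.8 CPM in WT libraries. All 438 coding bases of the principal Mrpl23 transcript are identical to the pseudogene, with no gap; the longer coding sequence of another Mrpl23 transcript was not compared. The first 150 coding bases of the gene and the matching bases 18 to 167 of the pseudogene, from GENCODE M21 transcripts on GRCm38, are shown because a read within them has no letter that tells the loci apart. They are in lower case throughout, since no base differs.
Mrpl23: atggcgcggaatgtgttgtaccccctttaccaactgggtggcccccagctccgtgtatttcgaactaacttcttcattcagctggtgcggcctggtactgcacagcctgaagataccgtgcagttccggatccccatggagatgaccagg
Mrpl23-ps1: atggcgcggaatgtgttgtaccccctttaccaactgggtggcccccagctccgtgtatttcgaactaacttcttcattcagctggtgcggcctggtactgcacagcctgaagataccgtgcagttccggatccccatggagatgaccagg

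Among ADCY3∆AT libraries, library 2 had the lowest Mrpl23 and the highest Mrpl23-ps1, whereas among WT libraries, library 3 was highest in both rows. The sum of the 2 rows was 24.2, 24.5 and 24.2 CPM in ADCY3∆AT libraries, against 24.0, 24.5 and 25.1 CPM in WT libraries. Its mean was 24.3 ± 0.17 CPM in ADCY3∆AT and 24.5 ± 0.54 CPM in WT (SD, n = 3 each), and its coefficient of variation over 6 libraries was 1.53%, against 17.7% for Mrpl23 alone and 3.63% for Mrpl23-ps1 alone, the row that makes up most of the sum. Of the 539 stretches of 31 bases in the pseudogene, 510 (94.6%) also occur in transcripts of the 78 genes. Since the sequences are identical, the level of Mrpl23 alone is uncertain. Its fold change was 0.41 without ADCY3∆AT library 2 and 0.14 without ADCY3∆AT library 3. Mrpl23-ps1 was singled out after its values were seen. Pseudogene rows of Mrpl48 and Mrps36 were at or near 0 in these libraries. Processed pseudogenes of other names also share sequence with some of the 78. Gm6997 holds 29.8% of the stretches of 31 bases of Mrpl22, and Gm6304 holds 28.0% of those of Mrpl27. In all, 28 of the 78 genes share over 10% of such stretches with other genes, and how far this bears on their levels was not tested.

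**Figure D4:**
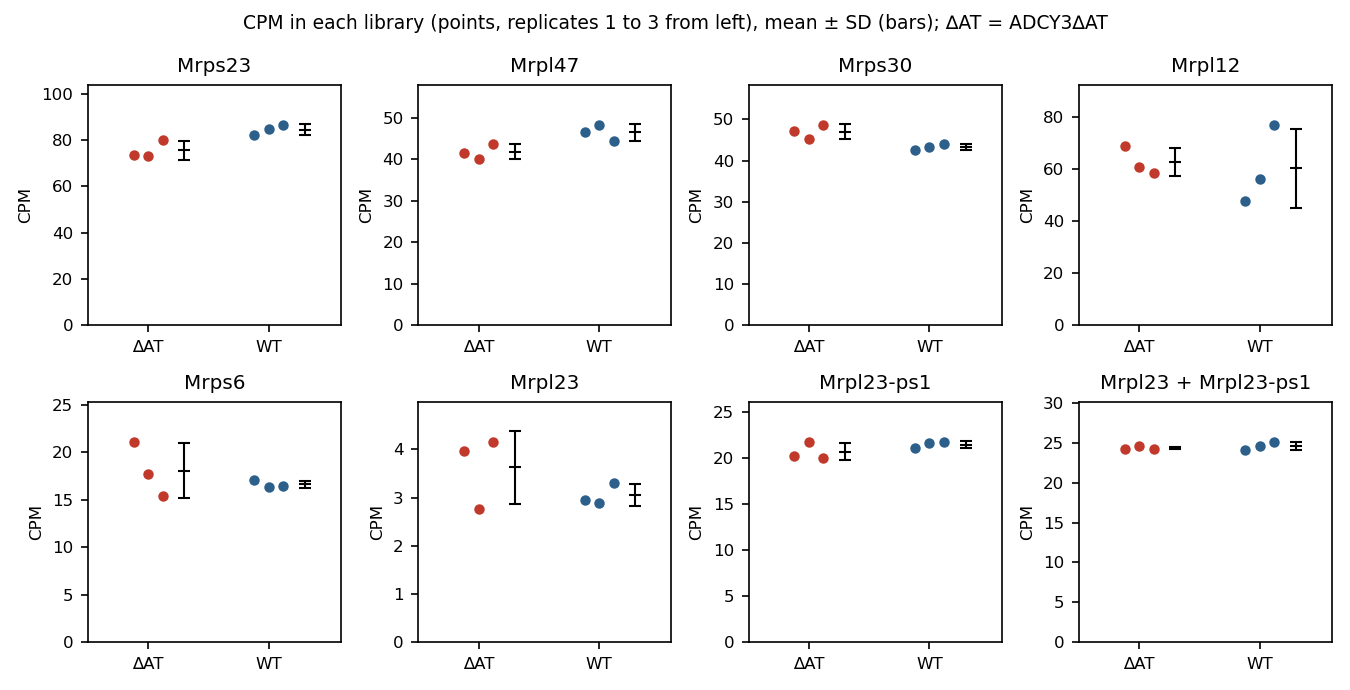
CPM in each library of 6 genes, of the pseudogene row Mrpl23-ps1 and of Mrpl23 plus Mrpl23-ps1 (points, ADCY3∆AT left of WT; bars are mean ± SD of 3 libraries; axes start at 0). Mrps23 and Mrpl47 lie lower and Mrps30 higher in ADCY3∆AT without overlap, Mrpl12 spans 47.6 to 77.0 CPM within WT, and the sum of the Mrpl23 rows stays between 24.0 and 25.1 CPM.

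Levels of different genes were compared as mean CPM per kilobase of the principal GENCODE transcript. The median over the 78 genes was 30.0 in ADCY3∆AT libraries and 30.7 in WT libraries, and the range over genes was 4.82 to 140. In the large subunit the highest were Mrpl42 (140 ± 7.8 in ADCY3∆AT, 140 ± 0.77 in WT; SD, n = 3 each), a mitochondria-specific protein, and Mrpl34, Mrpl20 and Mrpl54, at 102, 97.5 and 84.7 over all libraries. Mrpl34 is the counterpart of bacterial L34, among the smallest ribosomal proteins. In the small subunit by name the highest were Mrps36 (118 ± 7.3 in ADCY3∆AT, 119 ± 4.1 in WT), which is the gene that encodes no ribosomal protein, then Mrps21, the counterpart of bacterial S21, at 115. Mrps23 followed at 60.0 and Mrps18a, whose product sits in the large subunit, at 56.3. The neighbours Mrps36 and Mrps21, with 111 ± 5.9 in ADCY3∆AT and 118 ± 8.0 in WT for Mrps21, do not differ beyond their spread.

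The lowest levels per kilobase were those of Mrpl23 (4.82), Mrpl19 (5.60), Mrpl17 (6.63) and Mrpl32 (7.19) in the large subunit and Mrps25 (4.87), Mrps26 (4.96), Mrps17 (7.55) and Mrps14 (12.2) in the small subunit. Principal transcripts run from 418 to 7300 bases. Per kilobase of the longest annotated coding sequence, Mrpl17, Mrps14 and Mrps17 had 91.7, 95.1 and 106 CPM, above the median of 64.9 for the 78 genes. Mrpl19, Mrpl32, Mrps25 and Mrps26 stayed below it, with 32.0, 38.6, 57.7 and 35.3 CPM, as did Mrpl23 with 6.46 CPM. By class the median per kilobase of transcript was 36.6 in ADCY3∆AT and 36.9 in WT for large subunit proteins with a bacterial counterpart, and 27.5 in ADCY3∆AT and 27.3 in WT for those specific to mitochondria. For the small subunit it was 26.4 in ADCY3∆AT and 27.2 in WT with a bacterial counterpart, and 27.8 in ADCY3∆AT and 29.7 in WT for those specific to mitochondria. Exons of 23 of the 78 genes overlap those of another coding gene, by over 10% of their bases in 12. The largest shares include Mrpl53 with Gm42688 (88%), Mrps25 with Nr2c2 (69.8%) and Mrps34 with Mapk8ip3 (63.4%), so the levels of those genes are uncertain.

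**Figure D5:**
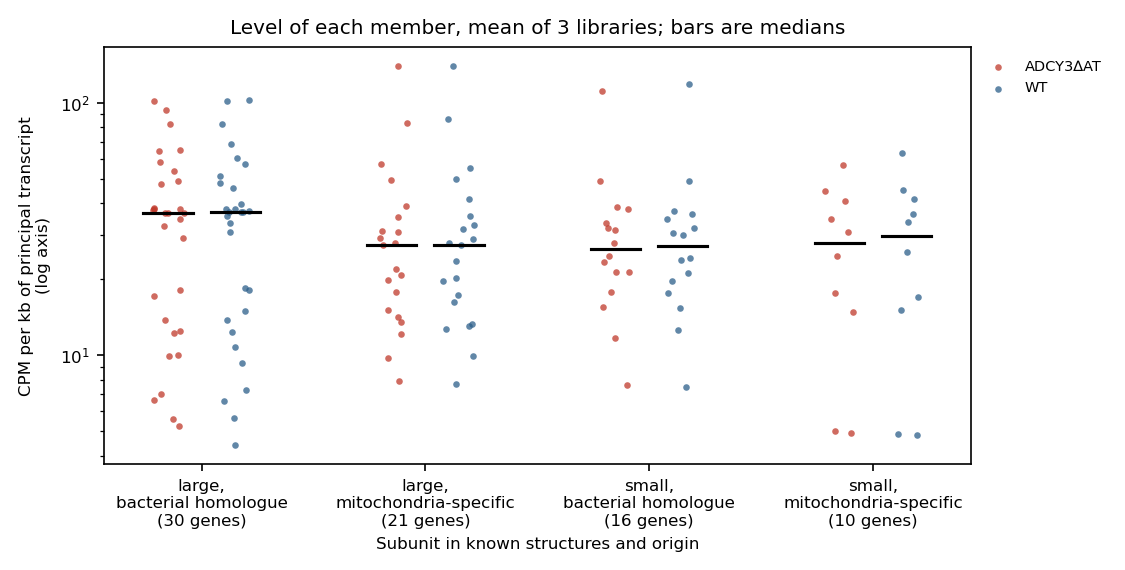
Mean CPM per kilobase of principal transcript of 77 genes by subunit in known structures and by origin (log axis; points are genes, means of 3 libraries; bars are medians; ADCY3∆AT left of WT; Mrps36 left out as no ribosomal protein). Points run from 4.40 (Mrpl23 in WT) to 140 (Mrpl42), and the medians of ADCY3∆AT and WT lie side by side in each class, for example 36.6 in ADCY3∆AT and 36.9 in WT in the first.

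The proteins and RNAs that work with the ribosomal proteins were taken from lists of known members. Of 5 ribosomal proteins with other names, Dap3, Ptcd3, Chchd1, Aurkaip1 and Gadd45gip1, 0 passed the test. An unadjusted edgeR p under 0.05 was reached by 0 of the 5, against 11% of all genes, and 5 genes are too few to compare with that share. Dap3, a GTP-binding protein of the small subunit, had 59.8, 57.5 and 56.6 CPM in ADCY3∆AT libraries and 62.2, 60.7 and 61.0 CPM in WT libraries. Of 30 assembly factors 0 passed, 23 had a negative and 7 a positive fold change, and the median was -0.04. Over all genes tested, 8890 fold changes were negative and 9224 positive. An unadjusted edgeR p under 0.05 was reached by 2 of the 30 (6.67%), against 11% of all genes. Mrm3, which methylates the large ribosomal RNA, had 17.2, 17.4 and 17.8 CPM in ADCY3∆AT libraries and 20.3, 19.6 and 19.4 CPM in WT libraries, a fold change of -0.18 ± 0.06 with no overlap (edgeR adjusted p = 0.323). Mief1, whose transcript also encodes a small protein that joins the assembling large subunit, was at -0.15 ± 0.06 (edgeR adjusted p = 0.414), and the RNA helicase Dhx30 at -0.12 ± 0.05 (edgeR adjusted p = 0.469).

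Of 16 translation factors 0 passed, with a median of -0.02. Tufm, the elongation factor that brings transfer RNA to the ribosome, had a fold change of -0.09 ± 0.06 (edgeR adjusted p = 0.61), and Pdf, the peptide deformylase, 0.11 ± 0.09. Of 22 mitochondrial aminoacyl-tRNA synthetases 0 passed, with a median of -0.003, and Lars2, for leucine, was at -0.16 ± 0.07 (edgeR adjusted p = 0.467). Of 12 genes of mitochondrial DNA upkeep and transcription 0 passed, with a median of -0.01. Tfam, which packs mitochondrial DNA and starts its transcription, had 42.1, 41.3 and 41.7 CPM in ADCY3∆AT libraries and 41.4, 43.1 and 42.3 CPM in WT libraries. The elongation factor Tefm was at -0.12 ± 0.08 (edgeR adjusted p = 0.622).

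Of 12 nuclear regulators of mitochondrial genes 0 passed, and 3 (25%) had an unadjusted p under 0.05, against 11% of all genes. The coactivator Ppargc1b had 84.1, 76.8 and 81.2 CPM in ADCY3∆AT libraries and 75.9, 71.4 and 72.0 CPM in WT libraries, a fold change of 0.14 ± 0.06 (edgeR adjusted p = 0.404). The nuclear receptor Esrrb and the coactivator Pprc1 lay the other way, at -0.61 ± 0.21 (edgeR adjusted p = 0.362) and -0.26 ± 0.10 (edgeR adjusted p = 0.387). Ppargc1a, the cold-induced coactivator of mitochondrial genes, had 71.0, 81.9 and 106 CPM in ADCY3∆AT libraries and 101, 97.9 and 92.7 CPM in WT libraries. Its ADCY3∆AT libraries lie on both sides of the WT ones.

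The RNAs that mitochondrial DNA contributes varied more than the nuclear ribosomal protein transcripts. The small subunit RNA mt-Rnr1 had 6349, 5506 and 5453 CPM in ADCY3∆AT libraries and 5804, 7341 and 5570 CPM in WT libraries. The large subunit RNA mt-Rnr2 had 57037, 51630 and 46933 CPM in ADCY3∆AT libraries and 53726, 62318 and 50270 CPM in WT libraries. Both overlap between genotypes and are highest in WT library 2, and their edgeR adjusted p values are 0.742 and 0.747. The sum of both RNAs had a coefficient of variation of 10.3% over the 6 libraries, against 1.09% for the sum of the 78 genes, which averages over many more rows. For the 13 proteins encoded by mitochondrial DNA, the products of this ribosome, the summed level varied by 6.81%, and the median fold change was -0.03. An unadjusted edgeR p under 0.05 was reached by 0 of the 13, against 11% of all genes, and 13 genes are too few to compare with that share. The number of ribosomal RNA counts per ribosomal protein count was 16.7 ± 1.4 in ADCY3∆AT and 17.7 ± 1.9 in WT (SD, n = 3 each). The labels call the RNA total RNA and do not say how ribosomal RNA was treated, so the levels of mt-Rnr1 and mt-Rnr2 may depend on that step.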

How the data were processed

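The authors deposited 1 table of estimated counts per Ensembl gene, not normalised, for 6 libraries. Of its values 31.6% are not whole. The submitters' processing notes name StringTie, Salmon, edgeR and the build GRCm38, without roles or versions; neither gives quantifier settings, and no label states strand. Rows were matched to GENCODE M21 symbols; 254 had none and held at most 0.0656% of a library. Estimated counts were rounded, filtered with filterByExpr (18114 genes left) and scaled with TMM factors. CPM values are TMM-normalised. Genotype was tested with edgeR's quasi-likelihood test (edgeR 4.0.16, R 4.3.3) over all genes, with Benjamini-Hochberg adjustment and a threshold of 0.05. DESeq2 1.42.0 and limma 3.58.1 voom, other scalings and filters, each library left out and a replicate block were alternatives. Each pair of libraries differed by more than sampling noise. The test was tried on simulated data.

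Named were the 8 genes of lowest p in each direction, the 4 highest and 4 lowest levels per kilobase in each subunit, the 4 highest coefficients of variation, the Mrps18 genes, Mrps30, Mrps36 and, from each related list, the 3 of lowest p with mt-Rnr1, mt-Rnr2, Tfam and Ppargc1a. Not every one is described singly. Mrpl37, Slc5a3 and the overlapping genes were picked after values were seen. The genes and lists were chosen with earlier results of these data known. Promoter motifs of NRF1 and YY1 were shortened to 9 letters after a search with longer forms, which fewer promoters held. Structural classes follow the standard mitoribosome nomenclature.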

Additional observations from a re-analysis of the deposited data

How the results depend on the processing

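Of the 78 genes 0 were called under any of 14 alternatives, and the lowest adjusted p of any of them was 0.153, for Mrps23 without ADCY3∆AT library 3. For 18 genes, the 16 named by p with Mrpl12 and Mrpl50, 3 of 252 fold changes turned sign: Mrpl12 without ADCY3∆AT library 1 (-0.016) or WT library 1 (-0.088) and Mrps6 without ADCY3∆AT library 1 (-0.0083). With single libraries left out Mrpl12 ran from -0.088 to 0.27 and Mrps6 from -0.0083 to 0.22; Mrpl23 ran from 0.14 to 0.41, Mrps15 from 0.027 to 0.14, Mrps18a from 0.022 to 0.10 and Mrpl50 from -0.20 to -0.053, with no call. Adcy3 ran from -0.99 to -0.68. Outside the 78, mt-Rnr1 turned to 0.020 without WT library 2 and ran down to -0.19 without WT library 3. The number of all genes called, 1 in edgeR, was 229 in DESeq2, 2 in limma voom and 214 with no low-count filter, and 1 to 66 with single libraries left out (66 without ADCY3∆AT library 3). Genes of the 78 with an unadjusted p under 0.05, 3 in edgeR (3.85%, against 11% of all genes), were 1 in DESeq2 (1.28%, against 5.63%). With single libraries left out they were 1 to 9 (1.28% to 11.5%), against 7.2% to 14% of all genes. The log2 difference of the large to small ratio was 0.011 with structural places and -0.0089 to 0.0049 with libraries left out. The median fold change of Mrpl genes was 0.0047 with library totals alone, where the median of all genes was 0.019, and -0.023 to -0.0092 with libraries left out; that of Mrps genes was -0.018 to 0.024. The cause was not tested.

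Replicate numbers are shared between genotypes. After each gene was centred on its mean within genotype, libraries of the same number correlated at -0.0857, -0.128 and -0.0864. No shared effect of the number was visible, but with 3 centred libraries a group such values cannot exclude a pairing. With the replicate block 3 genes were called in all, 0 of the 78. In that fit 1 of the 78 (1.28%) had an unadjusted p under 0.05, against 8.12% of all genes. The median fold change of Mrpl genes was -0.0096.

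With 3 libraries a group, the median standard error of the log2 fold change was 0.06 over the 78 genes. Reads shared with overlapping genes or copies limit single levels whatever the depth.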
